A study of Mus musculus with 70 samples.

Results

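Postnatal microglia carrying the Littman Cx3cr1CreERT2 allele (Cre+) were compared with microglia that lack it (Cre-), all from tamoxifen-treated mice, across every gene that could be tested. The comparison used 10 of the 70 libraries of the series, 5 a group, chosen as the columns labelled Postnatal_Littman_Cre+ and Postnatal_Littman_Cre- of 1 count table. Cre+ mice had the genotype Cx3cr1CreERT2(Litt) Hetero and Cre- mice the genotype Cx3cr1+/+(wildtype). Both groups carry the treatment label TAM, for tamoxifen, and the tissue label brain. The protocols name pup ages of 8 and 14 days, and tamoxifen in corn oil as 0.1 mg in 10 µl on postnatal days 1 and 3 or 0.2 mg in 20 µl on days 5 and 7. Which age and schedule these libraries had is not given in the sources used here. Each library came from 500 sorted CD11b+ CD45+ Ly6G- CD206- cells, lysed in 30 µl of which 15 µl was used, and was made by CEL-Seq2, which counts barcoded 3′ ends of mRNAs. The labels do not say that the 5 libraries of a group came from separate mice, so the p-values measure the spread between these libraries.

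Microglia are the resident macrophages of the brain, kept in their resting state by signals such as TGF-beta and CSF1 and able to shift to interferon-responsive, phagocytic or lipid-handling states. Cx3cr1 encodes the receptor for the neuronal chemokine fractalkine and is highly expressed in microglia, which is why it is used to drive Cre. CreERT2 is a Cre recombinase fused to a modified estrogen receptor domain, and it enters the nucleus and cuts DNA at loxP sites once tamoxifen is bound. In this line it is placed in the Cx3cr1 locus, so a heterozygote keeps 1 working copy of Cx3cr1. No oil-treated Littman group is in this table. The activated Cre, the inserted allele and the loss of 1 Cx3cr1 copy therefore cannot be told apart in the contrast of Cre+ with Cre-. The other 9 libraries of the table (Cx3cr1CreERT2(Jung) Hetero with Rosa26YFP Hetero, 5 with oil and 4 with tamoxifen) entered the fit to estimate the spread and are not compared here.

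Library totals ran from 341598 to 392736 counts in Cre- and from 375885 to 450461 in Cre+, with 12556 to 13074 genes detected over the 10 libraries. All 10 defining microglia markers were detected in both groups. Their summed level was 26291 to 30451 CPM (counts scaled to a common library total) in Cre- and 19123 to 23776 CPM in Cre+. This sum includes Cx3cr1, which differs between the groups by genotype. Log-scale correlations between libraries were 0.917 to 0.947 within Cre+, 0.925 to 0.941 within Cre- and 0.88 to 0.929 between the groups. Some libraries stood apart in single respects. Cre- replicate 2 held neutrophil transcripts that the other 9 libraries lacked, with S100a9 at 389.8 CPM, Camp at 295.7, S100a8 at 274.2, Ngp at 198.9 and Lcn2 at 139.8, and these 5 genes were at 0 in all Cre+ libraries. Cre+ replicate 1 had the highest share of mitochondrial counts, 6.69%, and Cre+ replicate 2 the highest summed level of immediate early genes, 5411 CPM against 2858 to 4172 CPM elsewhere. Without Cre- replicate 2, 496 genes were called in place of 552, and without Cre+ replicate 1 or Cre+ replicate 2 the count was 416 or 636.

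Of 7076 genes tested, 552 (7.8%) passed a Benjamini-Hochberg adjusted p under 0.05 in edgeR's quasi-likelihood test, 323 (4.56%) higher and 229 (3.24%) lower in Cre+. Of the 552, 45 belonged to the type I interferon, MHC class I and p53 target lists. In these lists 33 of 82, 8 of 22 and 3 of 21 tested genes were higher, and 1 interferon gene was lower. Of the 6951 tested genes outside the lists 507 passed. Outside the lists means only not named in them, and whether such genes respond to interferon or p53 was not tested. Among these genes 279 were higher, with a median log2 fold change of 0.60, and 228 were lower, with a median of -0.65. The median over all tested genes was -0.0011. Changes of at least 2-fold were found for 46 of the higher and 56 of the lower genes. The 5 Cre+ values did not overlap the 5 Cre- values for 140 of the higher and 138 of the lower genes, and for 5.67% of all tested genes. The split by direction depended on scaling. With library totals in place of TMM size factors 261 genes were higher and 297 lower, 46.8% higher in place of 58.5%. In bulk libraries fewer cells of a type and less RNA per cell cannot be told apart, and this holds for every result that follows.

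**Figure D1:**
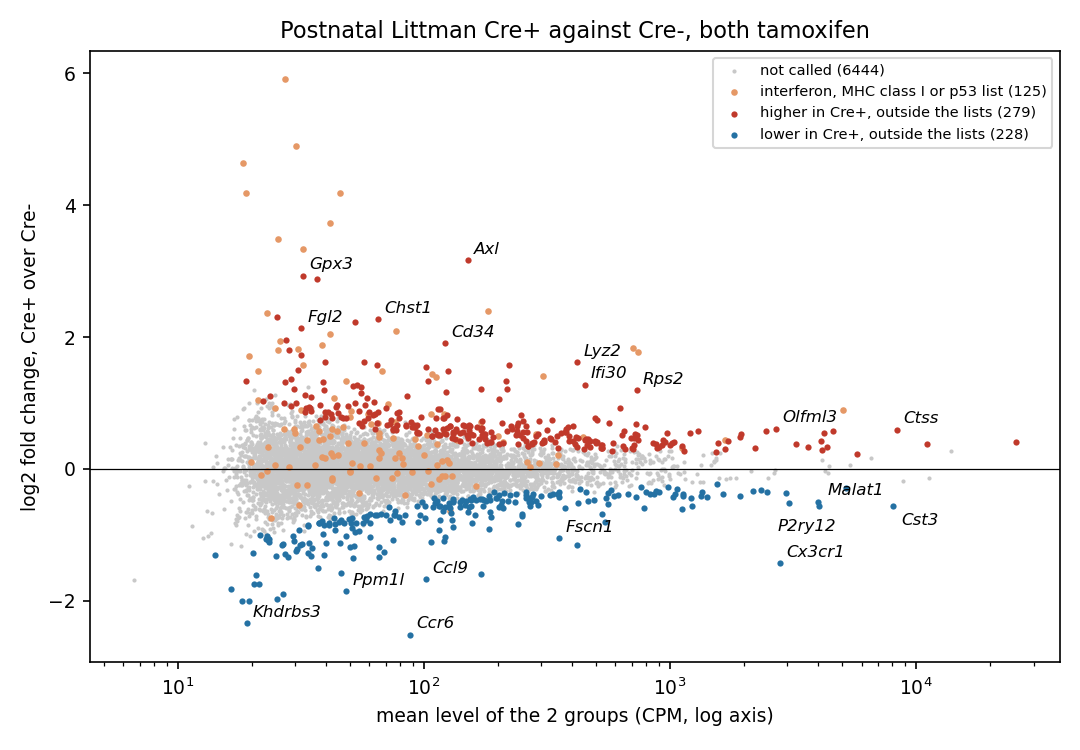
Log2 fold change of Cre+ over Cre- (vertical axis) against the mean level of the 2 groups in CPM (log axis) for the 7076 tested genes. Red and blue points are the 279 higher and 228 lower genes outside the interferon, MHC class I and p53 lists, orange points are the members of those lists whether called or not, and grey points are the other genes; called genes span all levels from about the filter to the most abundant transcripts.

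Cx3cr1 itself checked the labels (chr9:119901616-120069879, minus strand, GRCm38). It stood at 3939, 4065, 4154, 4098 and 4098 CPM in Cre- replicates 1 to 5 and at 1467, 1598, 1490.0, 1632 and 1364 CPM in Cre+ replicates 1 to 5. All 5 Cre+ libraries lay below all 5 Cre- libraries, with little spread in either group. Its log2 fold change was -1.43 ± 0.07 (SE, edgeR adjusted p = 4.2e-21), a level 2.70 times lower. The 3′ counts cannot show whether transcripts of the inserted allele add to the Cre+ value. Few genes around Cx3cr1 moved with it. Of 20 tested genes that start within 2 Mb of it, the only one called was Gm33858, a predicted gene on the opposite strand whose annotated span overlaps the start of Cx3cr1 (chr9:120068996-120070622, plus strand). Gm33858 fell from 69.6 ± 31.7 to 22.7 ± 14.4 CPM (SD, n = 5 each, edgeR adjusted p = 0.00031), with Cre- replicate 4 among the Cre+ libraries. The strand setting of the counting is not given in the sources used here, so counts of Gm33858 and of Cx3cr1 cannot be fully told apart. Within 10 Mb 8.47% of 59 tested genes were called, and on the whole of chromosome 9 8.07% of 409, beside 7.8% of all tested genes.

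The largest rise among the named genes outside the 3 lists was that of Axl, a receptor tyrosine kinase that binds Gas6 on dying cells, which rose 8.99-fold. Gpx3, a secreted selenium-dependent glutathione peroxidase, rose 7.62-fold, and Cd34, a sialomucin best known from blood progenitors and vessels, rose 3.74-fold. Chst1, a sulfotransferase that modifies keratan sulfate, and Htra3, a secreted serine protease, rose 4.83-fold and 4.69-fold.

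Axl (chr7:25757273-25788705, minus strand) was at 19.5, 34.95, 34.5, 21.8 and 39.6 CPM in the Cre- libraries and at 385, 179.7, 226, 280.0 and 284 CPM in the Cre+ libraries. The lowest Cre+ library was several times above the highest Cre- library. Its log2 fold change was 3.17 ± 0.23 (SE, edgeR adjusted p = 3.5e-15). Gpx3 (chr11:54902453-54910377, plus strand) was near the lower limit of the counts in Cre-, at 5.58, 5.38, 7.95, 8.16 and 9.13 CPM, and at 57.5, 47.7, 43.6, 59.8 and 76.45 CPM in Cre+. The Cre+ libraries were close to each other and far from every Cre- library (log2 fold change 2.93 ± 0.36, edgeR adjusted p = 3.81e-08). For Cd34 (chr1:194938819-194961279, plus strand) the Cre- values were 47.5, 64.5, 45.1, 62.6 and 36.5 CPM and the Cre+ values 178, 140.4, 187, 213 and 247 CPM. These groups also did not overlap (log2 fold change 1.90 ± 0.17, edgeR adjusted p = 1.08e-11).

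Chst1 rose from 22.2 ± 11.2 to 108 ± 20.9 CPM (SD, n = 5 each, log2 fold change 2.27 ± 0.25, edgeR adjusted p = 3.64e-09). Htra3 rose from 18.1 ± 7.63 to 87.3 ± 17.9 CPM (edgeR adjusted p = 1.12e-08). Both had no overlap between the groups. Fgl2, a fibrinogen-like protein made by myeloid and T cells, was at 5.58, 18.8, 23.9, 5.44 and 3.045 CPM in Cre- and 59.99, 44.9, 46.15, 52.65 and 56.7 CPM in Cre+, again apart (log2 fold change 2.14 ± 0.34, edgeR adjusted p = 1.19e-05). Mmp2, a gelatinase of the extracellular matrix, rose 3.07-fold (edgeR adjusted p = 2.63e-06), and Srgn, the granule proteoglycan serglycin, rose 2.92-fold (edgeR adjusted p = 9.53e-08). Epb41l3, which ties membrane proteins to the cytoskeleton, rose 2.99-fold (edgeR adjusted p = 9.74e-07). Tspo, the mitochondrial translocator protein used as a PET target for activated microglia, was 3.06-fold higher on average, from 22.3, 10.75, 23.9, 19.05 and 21.3 CPM in Cre- to 113, 22.5, 43.6, 50.3 and 69.05 CPM in Cre+. Cre+ replicate 2 lay among the Cre- libraries for Tspo, and the other Cre+ libraries lay above them (edgeR adjusted p = 0.00036).

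**Figure D2:**
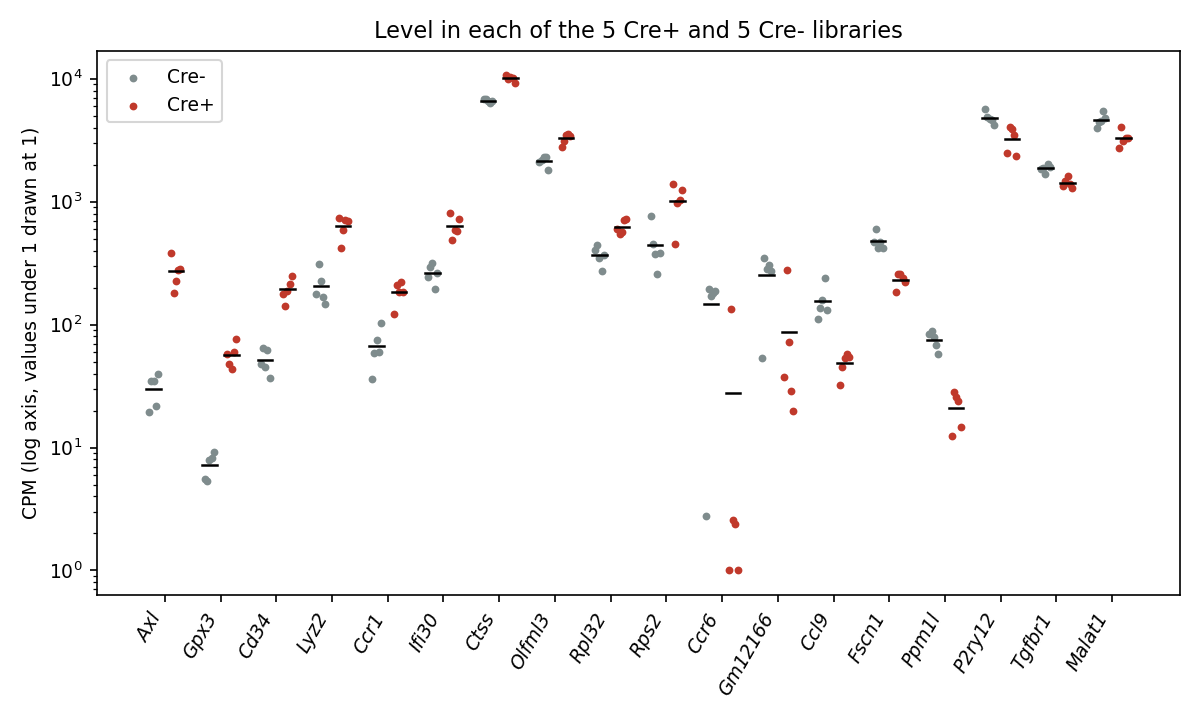
Level in CPM (log axis, values under 1 drawn at 1) of 18 genes in each of the 5 Cre- (grey) and 5 Cre+ (red) libraries, with a bar at each group's mean. Axl, Gpx3, Cd34 and Ctss separate the groups upward and Ccl9, Fscn1 and Ppm1l downward, while for Ccr6 and Gm12166 1 library of each group lies with the other group.

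Receptors and ligands of chemokines moved both ways. Ccr1, a receptor for inflammatory CC chemokines, stood at 36.3, 59.1, 74.2, 59.9 and 104 CPM in Cre- and 123, 211, 185, 223 and 185 CPM in Cre+, without overlap (log2 fold change 1.48 ± 0.19, edgeR adjusted p = 1.62e-07). Of 8 chemokine genes tested of 22 listed, 2 rose (Ccl2 and Ccl12, both monocyte attractants) and 2 fell (Ccl9 and Ccl6, which also recruit myeloid cells). Ccl9 (chr11:83572919-83578636, minus strand) fell from 112, 137, 159, 239.5 and 131 CPM in Cre- to 32.5, 44.9, 53.8, 57.4 and 54.25 CPM in Cre+, with no overlap (log2 fold change -1.67 ± 0.20, edgeR adjusted p = 3.81e-08). Ccl6 fell 2.53-fold (edgeR adjusted p = 2.74e-05) and Ccl12 rose 2.52-fold (edgeR adjusted p = 1.12e-08). Ccl2 was highest by far in 1 library, at 49.99, 202, 15.4, 28.7 and 29.6 CPM in Cre+ and 2.79, 10.75, 13.3, 2.72 and 12.2 CPM in Cre-. Its log2 fold change was 2.87 ± 0.55 (edgeR adjusted p = 0.000217). Ccl2 did not pass the filter on low counts, and so was not tested, when Cre+ replicate 1, 2, 4 or 5 was left out, and it was called in the 6 fits that left out another library. The chemokine list then had 1 gene higher without Cre+ replicate 1, 4 or 5. Csf1, the ligand of the receptor that microglia need to survive, rose from 50.25, 26.9, 34.5, 10.9 and 33.5 CPM in Cre- to 72.5, 70.2, 64.1, 69.4 and 101 CPM in Cre+, without overlap (log2 fold change 1.27 ± 0.27, edgeR adjusted p = 0.000835).

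Genes known from Trem2-dependent, disease-associated microglia were called higher in 14 and lower in 1 of 27 tested members (47 listed), with a median log2 fold change of 0.41 beside -0.0011 over all tested genes. Leaving out a library in turn gave 12 to 16 higher, and the 4 scalings 12 to 15. Beside Axl and Cd34 the 14 included Lyz2, Cd52, Npc2 and Fth1. Lyz2, the lysozyme of macrophages, was at 176, 309, 228, 169 and 146 CPM in Cre- and 739.9, 418, 587, 713 and 700.4 CPM in Cre+, apart in every library (log2 fold change 1.61 ± 0.14, edgeR adjusted p = 8.12e-13). Lyz2 is also a monocyte marker, and with Plac8 it was among only 2 tested genes of 18 in the monocyte list. The summed level of that list was 477 to 930 CPM in Cre+ and 174 to 379 CPM in Cre-. Lyz2 itself made up most of this sum in every library of both groups. Plac8 was at 5.58, 8.065, 0, 13.6 and 15.2 CPM in Cre- and 62.5, 19.65, 28.2, 31.1 and 69.05 CPM in Cre+, low but without overlap, and rose 4.94-fold (edgeR adjusted p = 0.000207). It was not tested without Cre+ replicate 1, 3, 4 or 5, where it missed the filter. The part of monocytes in these results was not tested. The monocyte genes Ly6c2, Chil3, Hp and Gda were at 0 in all Cre+ libraries. Cd52, a surface glycoprotein of leukocytes, rose 2.97-fold (edgeR adjusted p = 5.4e-10), and Fth1, the heavy chain of ferritin, 1.60-fold (edgeR adjusted p = 1.09e-06). The lower member was Apoe, the lipid carrier that in disease-associated microglia is known to rise. Apoe fell from 3333 ± 692 to 2598 ± 472 CPM (log2 fold change -0.36 ± 0.10, edgeR adjusted p = 0.0212), and its call was lost when any of Cre+ replicates 3 and 5 or Cre- replicates 3 and 5 was left out (highest adjusted p = 0.127).

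Lysosomal hydrolases and membrane proteins were higher for 16 and lower for 2 of 57 tested members (61 listed), with a median of 0.18. The number higher was 13 to 17 over the libraries left out and 16 to 17 over the 4 scalings. Among them were cathepsins that cut proteins in the lysosome. Ctss (chr3:95526786-95556403, plus strand) rose from 6837, 6893, 6564, 6330.0 and 6604 CPM in Cre- to 10620.0, 9864, 10360.0, 10200.0 and 9154 CPM in Cre+, with every Cre+ library above every Cre- library (log2 fold change 0.60 ± 0.07, edgeR adjusted p = 1.69e-08). Ctsh and Ctsc, 2 further cathepsins, rose 1.67-fold and 1.90-fold (edgeR adjusted p = 1.27e-07 and 2.36e-07). Ifi30, the lysosomal thiol reductase that prepares antigens for MHC class II, rose from 243, 296, 316, 196 and 262 CPM in Cre- to 802, 491, 587, 579 and 723 CPM in Cre+ (log2 fold change 1.28 ± 0.12, edgeR adjusted p = 4.33e-11), with no overlap. Npc2, which carries cholesterol out of the lysosome, and Grn, the precursor of the granulins, rose 1.56-fold and 1.45-fold (edgeR adjusted p = 9.37e-07 and 8.98e-08). Cst3, the secreted cathepsin inhibitor cystatin C, fell from 10010.0, 10540.0, 9714, 9909 and 8093 CPM in Cre- to 4182, 6626, 6040.0, 9099 and 6621 CPM in Cre+. Only Cre+ replicate 4 reached the range of the Cre- libraries (log2 fold change -0.57 ± 0.10, edgeR adjusted p = 0.000128). Of 6 tested genes of MHC class II presentation (15 listed), 3 rose and none fell, namely Ctss, Ifi30 and H2-DMa, which loads peptides onto class II molecules and rose 1.77-fold (edgeR adjusted p = 5.46e-05). The vacuolar ATPase that acidifies lysosomes had 3 of 16 tested subunits higher and none lower, and 0 higher without Cre+ replicate 5 or Cre- replicate 3 and 1 without Cre- replicate 5.

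Fcgr4, Srgn, Tgfbi and Pilra are 4 raised genes outside the 3 lists whose promoter holds the core of the interferon-stimulated response element, bound by interferon regulatory and STAT factors. The core was searched as GAAA, any 2 bases, GAAA, on both strands, in RefSeq promoters of GRCm38.p6 (250 bases before to 50 after the start). It was found in 6.56% of 259 promoters of the genes that rose outside the lists and 2.94% of 238 promoters of the genes that fell. The share was 3.05% over all tested genes, 3.44% over all 32851 promoters, and 44.8% of 29 promoters of the interferon genes that rose. Among the 51 promoters of genes that rose in both the postnatal and the vehicle set, described further on, it was 3.92%. Another 3 motifs were searched in the same way. GAS, the STAT site TTC, any 3 bases, GAA, was in 7.72% of the promoters of genes that rose, 6.72% of genes that fell, 6.69% of all tested genes and 8.3% of all promoters. The site GAGGAAGT of PU.1, the factor that defines macrophages, was in 3.86%, 7.14%, 3.49% and 3.2%, and the TATA box TATAAA in 8.49%, 10.5%, 6.54% and 13.6%. These shares were not tested. Of the 279 risen and 228 fallen genes, 219 and 172 were matched. The 250 bases before the start are shown for these 4 genes and, for comparison, for the interferon-induced gene Rsad2, each on the strand of the gene, with the match in capitals. The whole windows are chr12:26456403-26456702 (minus), chr1:171018676-171018975 (plus), chr10:62507708-62508007 (minus), chr13:56609336-56609635 (plus) and chr5:137836229-137836528 (minus), and the matches begin 120, 73, 220, 194 and 178 bases before the start.
Rsad2: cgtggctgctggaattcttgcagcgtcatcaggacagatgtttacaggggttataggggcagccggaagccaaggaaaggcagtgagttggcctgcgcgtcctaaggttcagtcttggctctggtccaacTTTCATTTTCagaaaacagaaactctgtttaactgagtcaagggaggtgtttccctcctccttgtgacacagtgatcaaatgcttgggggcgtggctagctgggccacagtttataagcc
Fcgr4: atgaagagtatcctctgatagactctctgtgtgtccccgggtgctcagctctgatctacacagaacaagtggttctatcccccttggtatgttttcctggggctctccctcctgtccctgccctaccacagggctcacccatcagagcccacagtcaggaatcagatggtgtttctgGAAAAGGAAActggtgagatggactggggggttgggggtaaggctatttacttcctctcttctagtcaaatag
Srgn: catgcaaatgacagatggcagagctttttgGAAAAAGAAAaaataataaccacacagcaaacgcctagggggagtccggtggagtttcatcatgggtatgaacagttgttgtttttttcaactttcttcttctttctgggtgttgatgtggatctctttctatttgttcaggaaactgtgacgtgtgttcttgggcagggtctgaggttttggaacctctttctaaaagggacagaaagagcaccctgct
Tgfbi: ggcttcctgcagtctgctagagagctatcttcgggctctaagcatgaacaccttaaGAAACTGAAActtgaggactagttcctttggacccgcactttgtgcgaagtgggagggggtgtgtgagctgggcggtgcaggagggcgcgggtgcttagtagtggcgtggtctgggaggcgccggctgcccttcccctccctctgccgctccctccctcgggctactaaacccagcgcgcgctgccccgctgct
Pilra: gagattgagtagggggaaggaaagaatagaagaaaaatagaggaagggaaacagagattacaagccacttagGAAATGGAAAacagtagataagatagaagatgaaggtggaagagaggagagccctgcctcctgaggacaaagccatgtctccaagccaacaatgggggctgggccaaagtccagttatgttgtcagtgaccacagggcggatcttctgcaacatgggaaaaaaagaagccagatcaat
In Rsad2 the match is read on the opposite strand, as TTTC, 2 bases and TTTC. A match is a description of the letters, and binding was not measured.

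Fcgr4, an activating receptor for IgG, rose from 5.58, 10.75, 10.6, 13.6 and 15.2 CPM in Cre- to 52.5, 30.9, 30.8, 52.65 and 51.8 CPM in Cre+, with no overlap (log2 fold change 1.96 ± 0.33, edgeR adjusted p = 2.72e-05). Tgfbi, a secreted matrix protein named for its induction by TGF-beta, was at 61.4, 64.5, 53.02, 51.7 and 39.6 CPM in Cre- and 188, 89.85, 66.7, 103 and 136 CPM in Cre+, where the lowest value was just above the highest Cre- value (edgeR adjusted p = 0.000182). Pilra, an inhibitory receptor for sialylated proteins, rose 2.03-fold (edgeR adjusted p = 0.000757). In all 17 of the 259 promoters of risen genes held a match.

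Genes that fell by the largest factors or lost the most counts had varied known roles. Ppm1l, a protein phosphatase of the endoplasmic reticulum (chr3:69316861-69560802, plus strand), fell from 83.8, 88.7, 79.5, 68.03 and 57.85 CPM in Cre- to 12.5, 28.1, 25.6, 23.9 and 14.8 CPM in Cre+. The groups were well apart (log2 fold change -1.85 ± 0.24, edgeR adjusted p = 1.35e-07). Khdrbs3, a regulator of splicing, was at 22.3, 34.95, 31.8, 43.5 and 27.4 CPM in Cre- and 0, 5.62, 12.8, 9.57 and 2.47 CPM in Cre+, low but without overlap (log2 fold change -2.34 ± 0.46, edgeR adjusted p = 0.000307). Sdk1, a cell adhesion molecule of the immunoglobulin family, fell 2.82-fold (edgeR adjusted p = 1.59e-05), and Csmd3, a large transmembrane protein, 3.55-fold (edgeR adjusted p = 0.00657). Fscn1, which bundles actin in cell protrusions, fell from 469, 602, 419, 471 and 420.2 CPM to 183, 256, 256, 239 and 222 CPM. Every Cre+ library was below every Cre- library (log2 fold change -1.05 ± 0.11, edgeR adjusted p = 1.17e-09). Mgll, the lipase that breaks down an endocannabinoid, fell 2.16-fold (edgeR adjusted p = 1.44e-05).

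Homeostatic microglia genes were lower for 14 and higher for 3 of 34 tested members (35 listed), with a median of -0.30. The counts lower were 12 to 16 over the libraries left out and 14 to 16 over the 4 scalings. P2ry12, the ADP receptor that guides microglial processes, was at 5676, 4909, 4732, 4629 and 4220.0 CPM in Cre- and 2500.0, 4049, 3930.0, 3470.0 and 2353 CPM in Cre+. All Cre+ values were below all Cre- values, though Cre+ replicates 2 and 3 came close (log2 fold change -0.57 ± 0.10, edgeR adjusted p = 3.67e-05). Vsir, an inhibitory checkpoint receptor, fell 1.47-fold (edgeR adjusted p = 1.38e-06). Fcrls, an Fc receptor-like gene typical of microglia, fell 1.27-fold (edgeR adjusted p = 0.0177), and its call was lost without Cre+ replicate 1 or Cre- replicate 3 (highest adjusted p = 0.0876). The 3 members that went the other way were Ctss, Cd33 and Olfml3. Olfml3, a secreted matrix protein that in the brain is largely microglial (chr3:103722222-103738001, minus strand), rose from 2102, 2180.0, 2301, 2300.0 and 1799 CPM in Cre- to 2805, 3103, 3476, 3549 and 3406 CPM in Cre+. The groups did not overlap (log2 fold change 0.61 ± 0.08, edgeR adjusted p = 1.04e-07). Cd33, a sialic acid receptor, rose 1.29-fold (edgeR adjusted p = 0.00201).

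Other receptor groups held genes of both directions. Of 26 tested purinergic and other G protein-coupled receptors (49 listed), 9 fell and 3 rose, with a median of -0.19. Gpr165, an orphan receptor, fell 3.73-fold (edgeR adjusted p = 0.000141), although Cre- replicate 5, at 18.3 CPM, lay near the Cre+ libraries. Adgrg1, an adhesion receptor of microglia, fell from 689 ± 46.2 to 397 ± 104 CPM (edgeR adjusted p = 7.42e-07), and C3ar1, the receptor for complement fragment C3a, rose 1.57-fold (edgeR adjusted p = 0.00012). Among 15 tested phagocytic and scavenger receptors 2 rose (Axl and Mrc1) and 3 fell, with the related kinases Axl and Mertk on opposite sides. Mertk, which also binds dying cells, fell from 584, 503, 456, 623 and 536 CPM in Cre- to 378, 475, 341, 402 and 345 CPM in Cre+, with 1 Cre+ library inside the Cre- range (log2 fold change -0.48 ± 0.10, edgeR adjusted p = 0.000763). Elmo1, an adaptor for engulfment, fell 1.30-fold (edgeR adjusted p = 0.00321). Cd300a, an inhibitory lipid receptor, fell 1.67-fold (edgeR adjusted p = 0.00134), as 1 of 3 lower and 2 higher among 14 tested inhibitory receptors.

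In the TGF-beta pathway 1 gene rose and 2 fell of 21 tested (30 listed), with a median of -0.17. Over all tested genes 4.56% rose and 3.24% fell. Tgfbr1, the type I receptor that microglia need to keep their identity, stood at 1829, 1890.0, 1670.0, 2014 and 1912 CPM in Cre- and 1347, 1477, 1615, 1388 and 1300.0 CPM in Cre+, without overlap (log2 fold change -0.39 ± 0.08, edgeR adjusted p = 0.000577). Pmepa1, a feedback inhibitor that TGF-beta induces, fell 1.51-fold (edgeR adjusted p = 4.74e-06), while Tgfbi rose as given above. Microglial transcription factors were lower for 6 and higher for 4 of 32 tested, and higher for 2 without Cre+ replicate 2 or 5 or Cre- replicate 2 or 5. Sall1, Mef2c and Mef2a, which maintain microglial identity, fell by 1.27-fold, 1.24-fold and 1.26-fold (edgeR adjusted p = 0.00512, 0.0059 and 0.0071). Bhlhe41, a repressor of the circadian clock that is also part of macrophage programmes, rose 1.62-fold (edgeR adjusted p = 0.000128). Malat1, a long nuclear RNA, fell from 4646 ± 563 to 3301 ± 485 CPM (edgeR adjusted p = 2.96e-05).

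Cytosolic ribosomal protein mRNAs were higher together. Of 77 tested (82 listed), 42 rose and none fell, and all 77 had a fold change above 0, with a median of 0.37. The number that rose was 36 to 45 over the 4 scalings and 30 to 53 over the libraries left out, lowest without Cre- replicate 4 and highest without Cre+ replicate 2. Their summed level was 32058 to 41463 CPM in Cre- and 41923 to 53104 CPM in Cre+, which did not overlap. Rpl32, a protein of the large subunit (chr6:115805505-115808747, minus strand), went from 405, 446, 347, 272 and 365 CPM in Cre- to 597, 548, 562, 708 and 723 CPM in Cre+ (log2 fold change 0.77 ± 0.11, edgeR adjusted p = 1.95e-06). Rack1, a scaffold of the small subunit listed with the translation factors (4 of 39 tested higher, 7 without Cre+ replicate 2, none lower), rose 1.42-fold (edgeR adjusted p = 0.000637). Many ribosomal genes have processed pseudogenes with nearly the same sequence, and how reads shared with them were counted is not given in the sources used here.

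The respiratory chain moved the same way in fewer members. Of 75 tested nuclear genes 11 rose and none fell, with a median of 0.31, and 6 to 19 rose over the libraries left out, 6 without Cre+ replicate 1 or 5, 7 without Cre- replicate 3 and 19 without Cre+ replicate 2. Uqcrfs1 of complex III and Cox4i1 of complex IV rose 1.71-fold and 1.53-fold (edgeR adjusted p = 0.000296 and 0.000637). Of 9 tested mRNAs encoded by the mitochondrial genome 4 rose and none fell, 2 to 5 over the libraries left out, fewest without Cre+ replicate 1 or Cre- replicate 4. Among them mt-Nd4 rose 1.26-fold and mt-Nd6 1.34-fold (edgeR adjusted p = 0.00483 and 0.000728). The share of mitochondrial counts, a measure also read as RNA or cell quality, was 3.76% to 5.02% in Cre- and 5.12% to 6.69% in Cre+, and its part in these results was not tested.

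Further groups gave fewer calls. Over all tested genes 4.56% were higher and 3.24% lower. Antioxidant, selenoprotein and iron genes were higher for 9 and lower for 1 of 33 tested, with a median of 0.29, and 4 to 9 were higher over the libraries left out, 4 without Cre+ replicate 1, Cre+ replicate 5 or Cre- replicate 5, and 5 without Cre- replicate 1 or 3. They included Gpx3, Fth1 and Sod1, the cytosolic superoxide dismutase, which rose 1.58-fold (edgeR adjusted p = 0.000576). The lower member was Selenop, a selenium carrier, which fell from 206 ± 33.5 to 140.4 ± 25.6 CPM (edgeR adjusted p = 0.00681). Glycolysis had 4 of 16 tested genes higher and none lower, 2 without Cre+ replicate 5 or Cre- replicate 3 or 4 and 7 without Cre+ replicate 2. Glucocorticoid-responsive genes had 5 of 14 lower and none higher, and 3 lower without Cre+ replicate 1 or 5 or Cre- replicate 1 or 4. Of the latter Sult1a1, a sulfotransferase, fell 2.41-fold (edgeR adjusted p = 0.0038). Trophic factors and secreted mediators were higher for 6 of 16, among them Igfbp4, a binding protein of insulin-like growth factors, which rose 1.48-fold (edgeR adjusted p = 0.000256). Trpm2, a calcium channel opened by oxidative stress, rose 1.90-fold (edgeR adjusted p = 0.000995), and the taurine transporter gene Slc6a6 1.31-fold (edgeR adjusted p = 0.00453), within 5 higher and 3 lower of 35 ion channels and transporters, 3 higher without Cre+ replicate 4. Slco2b1, an organic anion transporter of microglia, fell 1.36-fold (edgeR adjusted p = 9.17e-05). Casp1, the inflammasome protease, rose 1.81-fold (edgeR adjusted p = 0.00316) as the only 1 of 23 tested cell death genes outside the p53 list. That count is close to the share of all tested genes that were higher.

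Genes of vesicle traffic rose in few members, and actin genes changed in both directions. Rab32, a GTPase of lysosome-related organelles, and Dab2, an endocytic adaptor, rose 1.89-fold and 1.70-fold (edgeR adjusted p = 0.000173 and 0.00125) among 4 higher and no lower of 46 genes of endocytosis. Tmsb4x, which binds actin monomers, rose 1.30-fold (edgeR adjusted p = 0.000649), within 5 higher and 3 lower of 40 actin genes, 3 higher without Cre+ replicate 1 and 9 without Cre+ replicate 2. Dab2 and Mrc1 are also markers of border macrophages, whose summed level was 2156 to 2490 CPM in Cre- and 2099.8 to 2318 CPM in Cre+, with F13a1 at 0 in both groups. Mrc1, which encodes CD206, the protein gated against in the sort, rose from 108 ± 15.6 to 163 ± 64.7 CPM (edgeR adjusted p = 0.0297). That call was lost without Cre+ replicate 1 or 5 or Cre- replicate 2, 4 or 5 (highest adjusted p = 0.271). None of 21 tested genes of DNA damage sensing and repair was called in edgeR, 0 of them reached an unadjusted p under 0.05, and DESeq2 and limma-voom called none. Of 46 tested cell cycle genes 2 were higher and none lower, a share higher close to the 4.56% of all tested genes. The number higher was 0 without Cre+ replicate 1 or Cre- replicate 2 and 6 without Cre+ replicate 2. It was 1 without Cre+ replicate 3 or 5 or Cre- replicate 4 or 5. The replicate block gave 4. Among the 2 was Ccnb2, a mitotic cyclin (2.29-fold, edgeR adjusted p = 0.0116), whose call was lost without Cre+ replicate 1 or Cre- replicate 2 (highest adjusted p = 0.132). C1qb, a subunit of complement C1q, and Tyrobp, the adaptor of Trem2, rose 1.16-fold and 1.19-fold (edgeR adjusted p = 0.0287 and 0.043). Their calls were lost without Cre+ replicate 3 or 4 or Cre- replicate 3, 4 or 5 for both and also without Cre+ replicate 5 for Tyrobp (highest adjusted p = 0.0961 for C1qb and 0.166 for Tyrobp).

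**Figure D3:**
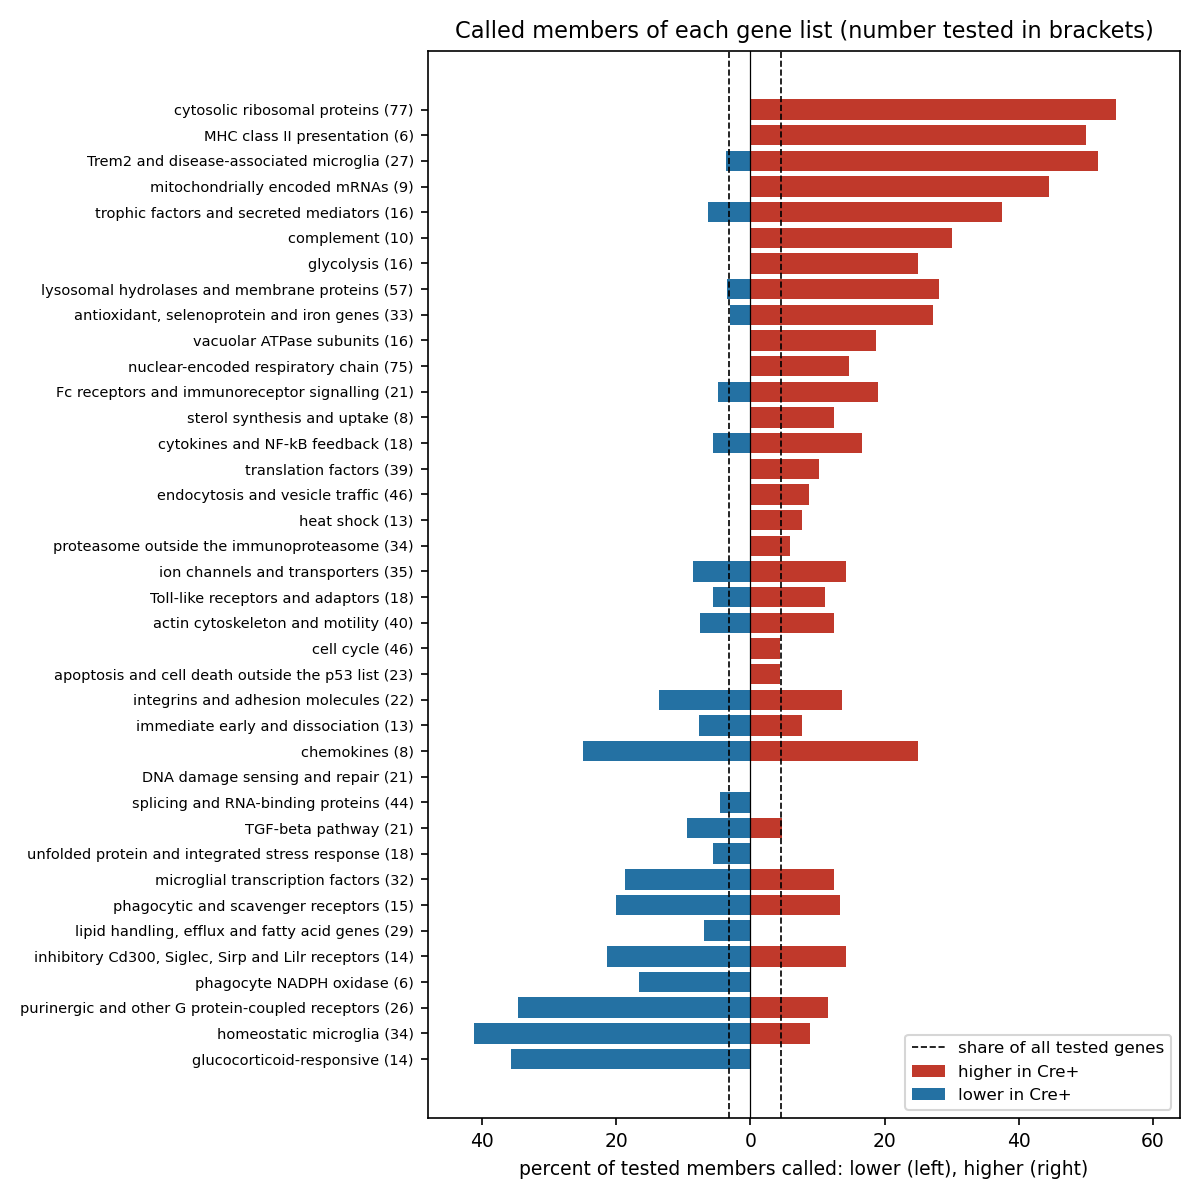
Percent of the tested members of each gene list that were called lower (blue, to the left of 0) or higher (red, to the right) in Cre+, with the number tested in brackets. Dashed lines mark the shares over all tested genes, 3.24% lower and 4.56% higher; ribosomal proteins, MHC class II presentation and disease-associated genes reach furthest to the right and homeostatic and glucocorticoid-responsive genes furthest to the left.

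The largest fall outside the lists among named genes, that of Ccr6, did not follow the groups in every library. Ccr6 encodes the receptor for a chemokine that attracts T and B cells (chr17:8236043-8257141, plus strand). It was at 2.79, 194, 172, 182 and 189 CPM in Cre- replicates 1 to 5 and at 0, 135, 2.56, 2.39 and 0 CPM in Cre+ replicates 1 to 5. Cre- replicate 1 was as low as most Cre+ libraries, and Cre+ replicate 2 was near the Cre- libraries. The log2 fold change was -2.51 ± 0.50 (edgeR adjusted p = 0.000373). It became -6.56 without Cre+ replicate 2 and -2.83 without Cre- replicate 1, and the limma-voom adjusted p with all libraries was 0.106. The 2 genes whose log2 levels followed Ccr6 most closely over the 10 libraries, among all tested genes, were Gm12166 (Pearson r = 0.97) and Rps2 (r = -0.949), given as a description, with 5 CPM added before the log. The next were Slc25a37 (r = 0.925), Sdha (r = -0.918) and Ssbp3 (r = 0.916). Gm12166, annotated as protein coding (chr11:46051354-46052321, minus strand), is a predicted gene outside the rule for named genes and was singled out after its values were seen. It was at 53.05, 349.5, 284, 305 and 271 CPM in Cre- and 37.5, 278, 71.8, 28.7 and 19.7 CPM in Cre+ (log2 fold change -1.60 ± 0.33, edgeR adjusted p = 0.000649, and -2.69 without Cre+ replicate 2). Rps2, a ribosomal protein of the small subunit (chr17:24718116-24721929, plus strand), ran the other way, at 768, 452, 377, 256 and 384 CPM in Cre- and 1387, 455, 972, 1036 and 1236 CPM in Cre+. It was highest where Ccr6 was lowest (log2 fold change 1.19 ± 0.17, edgeR adjusted p = 1.63e-06). Ccr6, Gm12166 and Rps2 together summed to 743 to 995 CPM in Cre- and 868 to 1424 CPM in Cre+, ranges that overlap. In Cre- replicate 1, where Ccr6 was low and Rps2 high, the sum was 824 CPM. The source of this pattern was not tested. In the 9 Jung libraries of the table Ccr6 had 1 to 4 counts each, Gm12166 stood at 16.1 to 47.1 CPM and Rps2 at 575 to 841 CPM, so the high Ccr6 level was found in 4 Cre- libraries and 1 Cre+ library of the 19. In the set labelled vehicle, described further on, Ccr6 was at 68.4 and 40.7 CPM in tamoxifen Cre- replicates 4 and 5 and at 63.8 and 35.0 CPM in oil Cre+ replicates 2 and 3, from 6 to 11 counts each. Gm12166 stood at 263 to 407 CPM in those 4 libraries. The other 9 vehicle libraries had 0 to 2 counts of Ccr6 and 10.9 to 107.5 CPM of Gm12166, so the higher level was found in some libraries of both of these groups and in none of the vehicle tamoxifen Cre+ libraries. Rps2 is 1 of the 42 ribosomal proteins counted above.

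Called genes differed in genomic length by direction. The median annotated span of the genes that rose outside the 3 lists was 11.5 kb, that of the genes that fell 46.3 kb, and that of all tested genes outside the lists 26.1 kb. Without ribosomal, respiratory and translation genes the median span of the risen genes was 17.6 kb, and that of the fallen genes stayed at 46.3 kb. Over all settings run the medians were 9.87 to 13.1 kb for genes higher and 45.1 to 54.1 kb for genes lower. Among tested genes shorter than 5 kb 10.3% rose and 3.53% fell. Among 371 genes of 160 kb or more 1.35% rose and 38 genes fell. The share that rose was lower in each longer class of genes, and the share that fell was lowest, 1.79%, between 10 and 20 kb. Genes of 160 kb or more took 5.86% to 6.25% of all counts in the Cre- libraries and 4.93% to 5.57% in the Cre+ libraries, with no overlap. Genes under 5 kb took 15.7% to 16.6% in Cre- and 16.6% to 18.4% in Cre+, ranges that meet. Exceptions included Ccl9 and Gpr165, genes of under 10 kb that fell, and Dab2, a gene of 141 kb that rose.

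**Figure D4:**
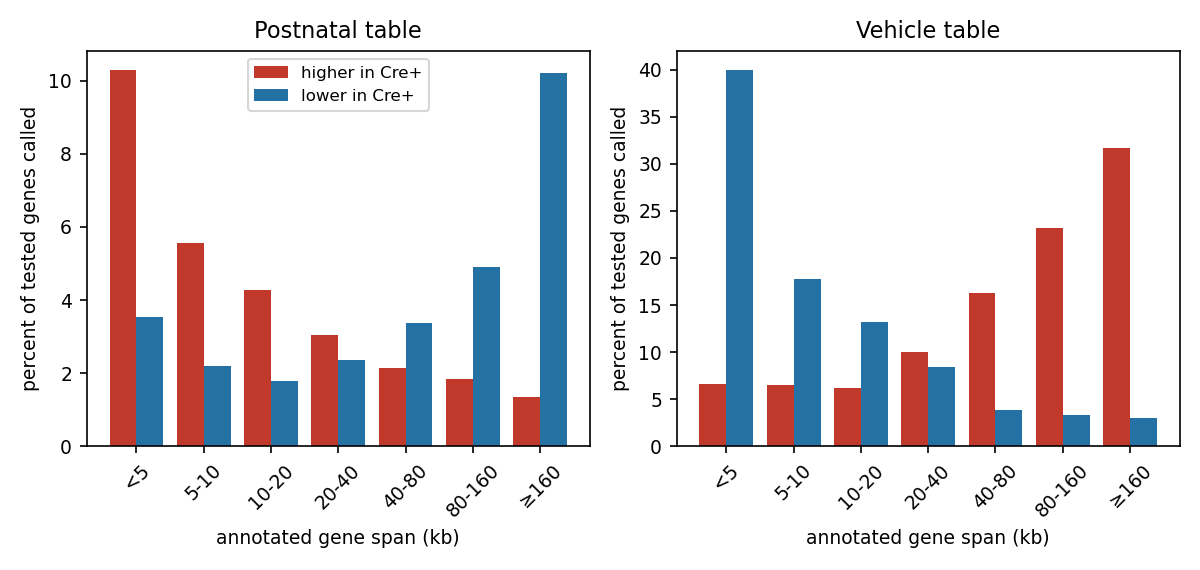
Percent of tested genes called higher (red) or lower (blue) in Cre+ by annotated gene span in kb, in the postnatal table (left) and in the vehicle table (right), with separate vertical scales. In the postnatal table the higher share goes from 10.3% to 1.35% and the lower share from 3.53% to 38 of 371 genes between the shortest and the longest classes; in the vehicle table the order is the opposite.

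A second set of pups with the same genotypes allowed the contrast to be read again in other libraries. These mice, labelled vehicle, were part of an inhibitor experiment, and comprise 4 libraries of Cx3cr1CreERT2(Litt) Hetero with vehicle and tamoxifen, 5 of Cx3cr1+/+ with vehicle and tamoxifen, and 4 of Cx3cr1CreERT2(Litt) Hetero with vehicle and oil. Their totals were lower, from 137965 to 277680 counts, and the age and injection schedule of each library are not given, so the sets may differ in either. Inhibitor-treated tamoxifen libraries of the same experiment, Cre+ and Cre-, entered the fits of this set to estimate the spread and are not compared here. Of 4953 genes tested, 1347 (27.2%) were called between Cre+ and Cre- with tamoxifen, 710 (14.3%) higher and 637 (12.9%) lower. Between tamoxifen and oil in Cre+ 1556 (31.4%) were called, 799 (16.1%) higher and 757 (15.3%) lower. The splits by direction moved with scaling, to 1027 higher and 393 lower with library totals, under which the median of all genes was 0.21, and to 626 and 760 with upper-quartile factors, for Cre+ against Cre-. For tamoxifen against oil, library totals gave 992 and 565. These 2 contrasts share the tamoxifen Cre+ libraries and are not compared with each other, whereas the postnatal set shares no library with them.

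Fold changes of the interferon, MHC class I and p53 genes correlated between the sets, and those of the other genes showed little relation. Across 112 such genes tested in both, the fold changes of Cre+ against Cre- correlated with r = 0.779 (Spearman's rho 0.666), while across 4536 other genes r was 0.0569 (rho -0.0654). These are descriptions across genes, which are not independent replicates. Of the 261 genes that rose outside the lists and were tested in both sets, 51 also rose in the vehicle set, 76 fell and 134 were not called. Of 152 that fell, 44 also fell, 19 rose and 89 were not called. Over all 4536 other genes tested in both, 554 rose and 551 fell in the vehicle set. The 19 of 152 that rose lie near that share. In a single edgeR fit over the 19 libraries of the 4 tamoxifen groups, the difference between the contrasts was called for 1450 of 6824 genes (21.2%), for 152 of the 261 and 63 of the 152. Genes of the interferon, MHC class I and p53 lists also differed in size between the sets. Of 42 that rose in the postnatal set and were tested in both, 41 rose in the vehicle set, beside 87 of all 112. The difference between the contrasts was called for 27 of the 42 and for 62 of the 112. Its count was 1161 to 1673 over scalings and libraries left out, lowest without vehicle tamoxifen Cre+ replicate 3. With library totals 415 of its genes had a higher and 1258 a lower value in the postnatal set, beside 702 and 748.

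**Figure D5:**
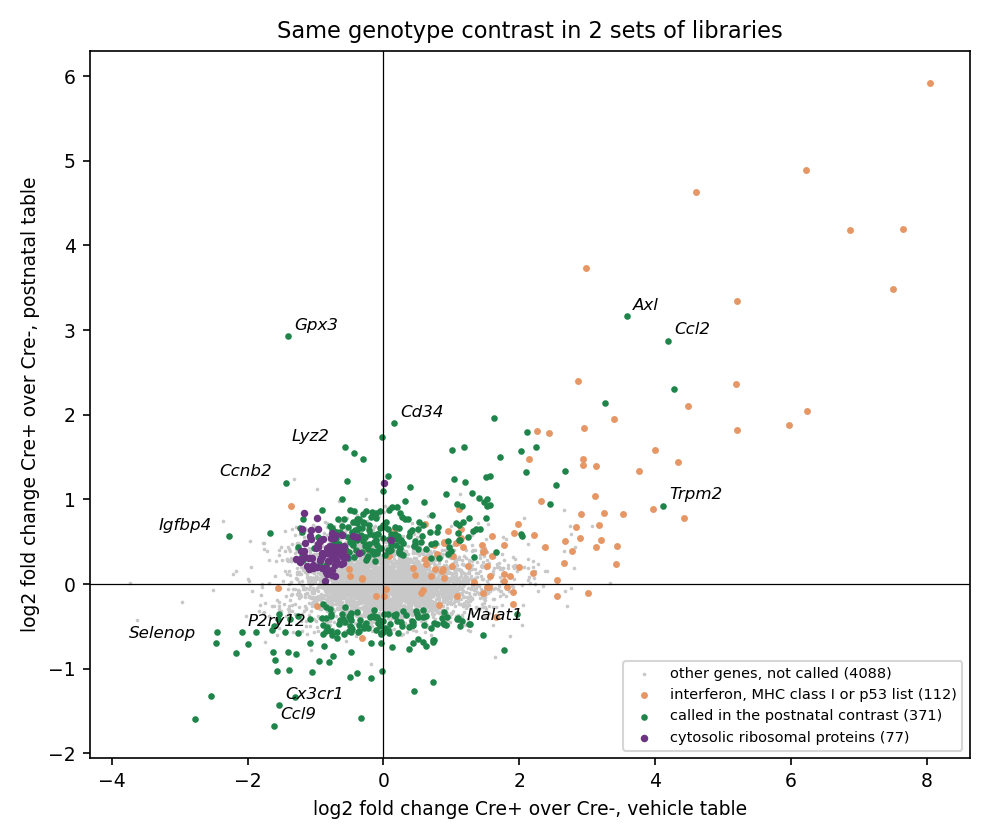
Log2 fold change of Cre+ over Cre- in the postnatal table (vertical axis) against that in the vehicle table (horizontal axis) for 4648 genes tested in both. Orange points are the interferon, MHC class I and p53 lists, purple points cytosolic ribosomal proteins, green points the other genes called in the postnatal contrast and grey points the rest; orange points rise together on both axes (r = 0.779) and ribosomal points lie above 0 on the vertical and mostly below 0 on the horizontal axis.

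Some genes moved the same way in both sets. The 51 genes that rose in both sets with tamoxifen and the 44 that fell in both included Axl, Cd52, Fgl2, Fcgr4, Mmp2 and Csf1 among the higher and Ccl9, Ccl6, P2ry12, Cst3 and Selenop among the lower. In the vehicle set Axl was at 20.8, 34.1, 21.1, 43.55 and 17.45 CPM in tamoxifen Cre-, 16.98, 15.95, 29.2 and 39.6 CPM in oil Cre+ and 214, 392.3, 363 and 385 CPM in tamoxifen Cre+. The tamoxifen Cre+ libraries stood apart from both other groups. In the postnatal set, which has no oil-treated Littman group, the Cre+ libraries stood apart from tamoxifen Cre-. The difference between the sets did not pass (log2 -0.42 ± 0.44, edgeR adjusted p = 0.538). For P2ry12, Cst3 and Selenop the vehicle falls were larger, with log2 fold changes of -2.09, -1.88 and -2.46, and the differences of 1.53 ± 0.20, 1.32 ± 0.20 and 1.92 ± 0.27 passed (edgeR adjusted p = 2.51e-07, 3.35e-06 and 6.62e-07). Trpm2 and Ccl12 rose more in the vehicle set, by 4.11 and 2.68, with differences of -3.25 ± 0.58 and -1.34 ± 0.27 (edgeR adjusted p = 3.46e-05 and 0.000275).

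Gpx3, whose postnatal rise was second to that of Axl among the named genes outside the 3 lists, fell in the vehicle set. It was at 41.6, 45.5, 52.8, 31.1 and 40.7 CPM in vehicle tamoxifen Cre-, 62.3, 112, 75.8 and 87.1 CPM in oil Cre+ and 15.02, 18.5, 18.1 and 7.54 CPM in tamoxifen Cre+. The tamoxifen Cre+ libraries lay below all libraries of both other groups, a fall whose call was lost with no filter on low counts. The difference was 4.34 ± 0.53 (edgeR adjusted p = 5.13e-08). Igfbp4 was at 554, 666, 507, 579 and 465 CPM in tamoxifen Cre- and 135, 115, 109 and 90.5 CPM in tamoxifen Cre+, a fall of -2.27 on the log2 scale beside the postnatal rise of 0.57 (difference 2.84 ± 0.22, edgeR adjusted p = 2.83e-13). Olfml3 fell from 1641, 1803, 1437, 1394 and 1698 CPM to 683, 822, 722 and 528 CPM (difference 1.82 ± 0.18, edgeR adjusted p = 2.23e-10). Mrc1 and Ccnb2 also fell in the vehicle set, with differences of 2.25 ± 0.29 and 2.64 ± 0.49 (edgeR adjusted p = 1.39e-07 and 7.55e-05). Lyz2 was at 416, 279, 338, 311 and 396 CPM in tamoxifen Cre- and 263, 268, 178 and 234 CPM in tamoxifen Cre+, a lower level whose call was lost with library totals, with no filter, and without tamoxifen Cre+ replicate 3 or 4 or tamoxifen Cre- replicate 1 or 5. Its difference from the postnatal rise was 2.18 ± 0.26 (edgeR adjusted p = 2.43e-08).

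Other postnatal rises had no call in the vehicle set. Cd34, Srgn, Ccr1 and Ifi30 differed between the sets by 1.77 ± 0.46, 1.98 ± 0.37, 1.80 ± 0.39 and 1.21 ± 0.22 (edgeR adjusted p = 0.00373, 8.46e-05, 0.000656 and 5.86e-05). The same held for the lysosomal genes Ctss, Ctsh and Npc2, whose differences were 0.70 ± 0.17, 1.18 ± 0.21 and 0.87 ± 0.18 (edgeR adjusted p = 0.00177, 4.14e-05 and 0.000227). For Tgfbi the difference of 1.11 ± 0.38 (edgeR adjusted p = 0.0276) was lost with library totals and without postnatal Cre+ replicate 1, vehicle tamoxifen Cre- replicate 1 or vehicle tamoxifen Cre+ replicate 1 or 3 (highest adjusted p = 0.093). Mef2a, Mef2c and Malat1 went the other way, lower in the postnatal and higher in the vehicle set (the vehicle call of Mef2c was lost without tamoxifen Cre+ replicate 3 or with no filter), with differences of -1.21 ± 0.18, -0.89 ± 0.17 and -1.61 ± 0.18 (edgeR adjusted p = 2.85e-06, 7.61e-05 and 6.22e-09).

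Ribosomal protein mRNAs were opposite in the 2 sets. Of 79 tested in the vehicle set 73 were lower and none higher in Cre+ with tamoxifen, and 61 were lower under library totals. Their summed level was 39291 to 60222 CPM in vehicle tamoxifen Cre+, 87047 to 101707 CPM in tamoxifen Cre- and 95578 to 108387 CPM in oil Cre+. Of the 76 genes that rose in the postnatal and fell in the vehicle set, 40 were ribosomal proteins. For Rpl32 the difference was 1.78 ± 0.24 (edgeR adjusted p = 2.56e-07). The mitochondrial mRNA mt-Nd4 and the microglial genes C1qb and Tyrobp had the same pattern, with differences of 1.53 ± 0.18, 1.08 ± 0.17 and 1.21 ± 0.17 (edgeR adjusted p = 2.43e-08, 3.85e-06 and 1.19e-06). The share of mitochondrial counts ran opposite as well, at 11.1% to 15.9% in vehicle tamoxifen Cre- and 7.76% to 9.59% in vehicle tamoxifen Cre+. So did gene length. Among 693 genes under 5 kb 277 fell and 6.64% rose in the vehicle set, and among genes of 160 kb or more 3.04% fell and 31.7% rose. Genes under 5 kb took 27.4% to 32.0% of the counts in vehicle tamoxifen Cre+, 34.2% to 37.9% in tamoxifen Cre- and 34.1% to 35.0% in oil Cre+. The summed levels of some marker lists moved as well. The 10 defining microglia markers, Cx3cr1 among them, were all detected in every group. They summed to 8172 to 8906 CPM in vehicle tamoxifen Cre+, 16992 to 19192 CPM in tamoxifen Cre- and 18312 to 22728 CPM in oil Cre+. Endothelial and mural markers summed to 106 to 249 CPM in vehicle tamoxifen Cre+. Their sums were 10.6 to 45.5 CPM in tamoxifen Cre- and 15.8 to 71.8 CPM in oil Cre+. Of these 15 markers 6 had any count in vehicle tamoxifen Cre+, and Cldn5, Vwf and Acta2 had none. Only 1 of the 15 passed the filter on low counts in this set, and it was called higher in tamoxifen Cre+ than in tamoxifen Cre-. The sum may rest largely on that gene, so it is not read as a change in endothelial or mural cells. Whether that gene responds to interferon was not tested. The part of depth, mitochondrial share, length and these markers in the differences was not tested.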

How the data were processed

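Microglial CEL-Seq2 libraries were analysed from the deposited count tables, 1 for the postnatal and 1 for the vehicle libraries, which hold UMI counts per gene made by the authors. The submitters' processing notes list HISAT2, featureCounts, Trim Galore and UMI-tools with the build GRCm38. For versions, strand and reads with several matches, nothing is given in the sources used here. Groups came from sample titles and genotype and treatment labels. The 3 tables of adult libraries were not used here.

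Counts were tested with edgeR 4.0.16 (R 4.3.3, limma 3.58.1), with filterByExpr by group, TMM size factors and the quasi-likelihood test, over all groups of a table, and were called at a Benjamini-Hochberg adjusted p under 0.05. CPM values divide counts by TMM-scaled library totals, and a mean ± SD is over libraries. Fold changes are edgeR's, so the scatter of low counts limits them. The difference between contrasts was tested in 1 fit over both tables, added after the data were seen. Genes were named by a rule: called, outside the interferon, MHC class I and p53 lists, no predicted gene model and at least 20 CPM in the higher group, then the 15 largest changes and 8 largest CPM changes each way, up to 6 called members of each list by p, 3 called members of each marker list and set-aside list, and called genes within 2 Mb of Cx3cr1. It gave 158 genes, of which 81 are described. These 81, and the 35 genes whose difference between contrasts was read, were picked after their values were seen. The genes, lists and tests were chosen with earlier results of these data known. Gene spans and positions are from the GENCODE annotation of GRCm38 in the reference files. Alternatives were other size factors, no filter, DESeq2 1.42.0, limma-voom, the compared groups only, replicate number as a block, sex as a covariate, and leaving out each library. Checks with a chi-square over genes found no 2 libraries of a group within sampling noise of each other. The code was tested on simulated counts. By X- and Y-linked transcripts, each postnatal Littman group held 2 male and 3 female libraries. The Jung oil group held 3 male and 2 female and the Jung tamoxifen group 2 male and 2 female libraries.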

Additional observations from a re-analysis of the deposited data

Results flagged for a closer look

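A library stood apart from the other 4 of its group, by a gap test on its distance to the nearest of them, in 16 of 198 sets of 5 values, beside about 1 in 20 by chance. In Cre+ replicate 2 these were Ccl2 (202.2 CPM), Ccr6 (134.8 CPM), Gm12166 (278 CPM) and the summed immediate early genes (5411 CPM), all high. In Cre- replicate 1 Ccr6 (2.79 CPM) and Gm12166 (53.1 CPM) were low and Fth1 (656 CPM) was high. Cre- replicate 2 was high in Fscn1 (602 CPM) and in summed neutrophil markers (1850 CPM). Cre- replicate 5 was low in Gpr165 (18.3 CPM) and Grn (3121 CPM), Cre- replicate 4 low in Npc2 (495 CPM) and Cre- replicate 3 low in Casp1 (39.8 CPM). Cre+ replicate 1 was high in mitochondrial share (6.69%) and erythroid markers (55.0 CPM), and Cre+ replicate 5 in Csf1 (101 CPM).

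The Cre+ against Cre- change differed between the postnatal and the vehicle sets, by the edgeR test of the difference, for 29 of 35 genes read, which were picked after their values were seen, so this is no share of the named genes. The postnatal log2 fold change was higher by 4.34 for Gpx3, 2.84 for Igfbp4, 2.64 for Ccnb2, 2.25 for Mrc1, 2.18 for Lyz2, 1.98 for Srgn, 1.92 for Selenop, 1.82 for Olfml3, 1.80 for Ccr1, 1.78 for Rpl32, 1.77 for Cd34, 1.53 for mt-Nd4 and 1.53 for P2ry12. Smaller positive differences were 1.32 for Cst3, 1.21 for Tyrobp, 1.21 for Ifi30, 1.18 for Ctsh, 1.17 for Rps2, 1.11 for Tgfbi, 1.08 for C1qb, 0.87 for Npc2 and 0.70 for Ctss. The difference was negative for Trpm2 (-3.25), Malat1 (-1.61), Ccl12 (-1.34), Mef2a (-1.21), Tgfbr1 (-0.95), Mertk (-0.89) and Mef2c (-0.89). The 2 sets differ in depth, and their ages and schedules are not given, so the source of these differences was not tested.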

How the results depend on the processing

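The postnatal count of 552 called genes was 415 to 589 over other size factors, filters, tools and designs, 416 with DESeq2 and 514 with limma-voom, and 402 to 636 over libraries left out, lowest without Cre+ replicate 5. Outside the 3 lists it was 363 to 593. Neither of these 2 counts moved by more than 1.5 times. Counts by direction moved by more with library totals in the vehicle contrast (393 lower in place of 637) and in the difference between sets (1258 with a lower postnatal value in place of 748), as did several counts of small lists when 1 library was left out, given above. Of 82 named genes none changed direction under any of these settings, and 74 passed in every setting that tested them. The other 8 are Apoe, C1qb, Ccnb2, Fcrls, Mrc1 and Tyrobp, lost without single libraries as given above, Ccr6, lost with limma-voom and given no adjusted p by DESeq2, and Gm12166, lost with DESeq2 (adjusted p = 0.142). Apoe was also lost with DESeq2, with the 2 groups fitted alone and with the replicate block (highest adjusted p = 0.157). C1qb and Tyrobp were also lost with library totals, no filter, the 2 groups alone and the block (highest 0.194 and 0.156). Mrc1 was also lost with DESeq2, limma-voom, the 2 groups alone and the block (highest 0.084), and Fcrls with the 2 groups alone (0.0771). Ccl2 and Plac8 missed the filter, and were not tested, in 4 of the fits without a Cre+ library, with the 2 groups alone and with the block. Csmd3, Gpr165, Khdrbs3 and Tspo were likewise not tested in the last 2. Replicate numbers did not pair the libraries: the deviations of same-numbered postnatal libraries correlated at 0.0353 to 0.0847, and 1 of 5 correlated best with its own number. With the replicate block 425 genes were called, 249 higher and 176 lower, beside 415 in the same 10 libraries without it. In the vehicle set the block gave 1261 and, for tamoxifen against oil, 1393. Depth limits what could be seen: 1 count was worth 2.22 CPM in the deepest and 2.93 CPM in the shallowest of the 10 libraries, so changes in genes under about 20 CPM rest on few counts.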
